A study of Mus musculus with 6 samples.

Results

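The genes described here encode the machinery that makes ribosomes: RNA polymerase I with its initiation factors, the processing and assembly factors of the small and the large ribosomal subunit, the proteins of small nucleolar RNA particles (snoRNPs), and a few abundant nucleolar proteins together with the transcription factor Myc. The list named 41 genes, chosen by function but with earlier results of these data known. Each was found on the arrays through a probe set that names that gene alone, and a gene with several is represented by its brightest. All 41 were measured, of 18193 genes in all. Of these, 7 belong to polymerase I, 12 to the small subunit, 9 to the large subunit and 8 to the snoRNPs, and 5 are nucleolar proteins or regulators.

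RNA came from cells of mice on a C57BL/6 background, sorted as negative for lineage markers and Flt3 and positive for Sca1 and cKit, a gate that enriches blood stem and progenitor cells. Both groups carried 2 floxed copies of Raptor exon 6 and both were given pIpC (polyinosinic-polycytidylic acid, which induces interferon) 3 times over 5 days, 15 µg per g of body weight each time, and were sorted 5 weeks later. The 3 Raptor mutant arrays came from mice that also carried MxCre, in which an interferon-responsive promoter drives the recombinase, so that deletion is not limited to blood cells. The 3 wild type arrays came from mice without it. The labels do not say whether an array stands for 1 mouse or a pool, nor the age of the mice, nor how completely the alleles had recombined. The p-values therefore refer to the spread of these particular arrays, part of which may be technical.

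Ribosome production starts in the nucleolus, where polymerase I transcribes one long precursor that holds most of the ribosomal RNA. Box C/D and box H/ACA snoRNPs modify the bases and sugars of that precursor, and assembly factors cut and fold it into the small and large subunits. The pathway is among the costliest of a growing cell and is a textbook target of mTORC1, the kinase complex that Raptor defines. Quiescent stem cells are known for a low rate of protein synthesis.

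Rptor, the gene of Raptor, was not lower in the mutant on its brightest probe set, with log2 signals of 8.56, 8.17 and 7.59 on wild type and 8.68, 7.99 and 8.32 on mutant arrays (log2 fold change 0.22 ± 0.29, SE). Its other probe sets gave -0.32 ± 0.25 and 0.99 ± 0.46 (SE). Whether any of them lies in the floxed exon was not examined here, so they do not check the labels, and the groups are named as labelled. The median log2 signal of an array was 6.85 to 6.94. The probe sets of Kit, at 10.71 to 11.17, and Cd34, at 11.51 to 11.87, stood above those medians on all 6 arrays. Flt3 stood there as well, at 9.51 to 10.79, although the sort took cells without the surface protein. No probe set names Ly6a, the gene of Sca1, alone, so it was not used here. Among markers of other cells, the T cell genes Cd3e, Cd3g and Cd3d and the macrophage gene Adgre1 reached at most 6.55 on any array. Cd68 and H2-Aa of the macrophage and dendritic cell list stood at 7.70 to 9.70 and 8.70 to 11.73, and Nkg7 and Prf1 of the T and NK cell list at 10.65 to 11.22 and 9.46 to 10.09. S100a9 of the granulocyte and monocyte list stood at 13.28 to 13.63 on wild type and 9.74 to 11.67 on mutant arrays. Pf4 of the megakaryocyte list stood at 11.37 to 11.57 and 9.18 to 10.49. Mmp8 and Ppbp of these lists reached at most 5.82 and 4.84. Eif2s3y, a Y-linked gene, reached 10.81 and 10.49 (log2) on control arrays 2 and 3 and at most 4.53 on the others, so that wild type array 1 is the only control array that, like the 3 mutant arrays, lacked this signal. Over all probe sets that array correlated at 0.977 to 0.984 with the mutant arrays and at 0.962 and 0.967 with the other controls. Over the whole table limma called 20 genes changed at a Benjamini-Hochberg adjusted p under 0.05, 10 in each direction (0.0550% of genes each way).

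Most ribosome biogenesis genes had slightly higher signal in Raptor mutant than in wild type cells, and none of them passed the test over all genes. The log2 fold change, mutant minus wild type, was above 0 in 37 of 41 members, whereas it was above 0 in 40.4% of all genes. Its median over the members was 0.26, or 1.19-fold, against -0.07 for all genes. The 4 members below 0 were Ncl, Npm1, Pes1 and Rrp12, with values between -0.09 and -0.04. The largest was that of Nolc1, at 0.81. Limma called 0 of 41 members at an adjusted p under 0.05, where 0.110% of all genes were called (0.0550% higher and 0.0550% lower), and the smallest adjusted p among them was 0.155, for Polr1b.

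At an unadjusted limma p under 0.05, 11 members (26.8%) were higher and 0 lower in mutant arrays, where 5.81% of all genes were higher and 4.24% lower. In 15 members (36.6%) all 3 mutant arrays lay above all 3 wild type arrays, against 8.08% of all genes, and in 0 members they lay below, against 7.98%. The members are well expressed, and 34 of them are among the 4549 brightest genes. Over those 4549 genes the median log2 fold change was 0.06, with 60.8% of genes above 0. At an unadjusted limma p under 0.05, 7.83% were higher and 3.78% lower. All mutant arrays lay above all wild type arrays in 15.0% and below them in 7.10%. The count of 11 was 6 without mutant array 2, where the median was 0.20, and 6 without mutant array 3.

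**Figure D1:**
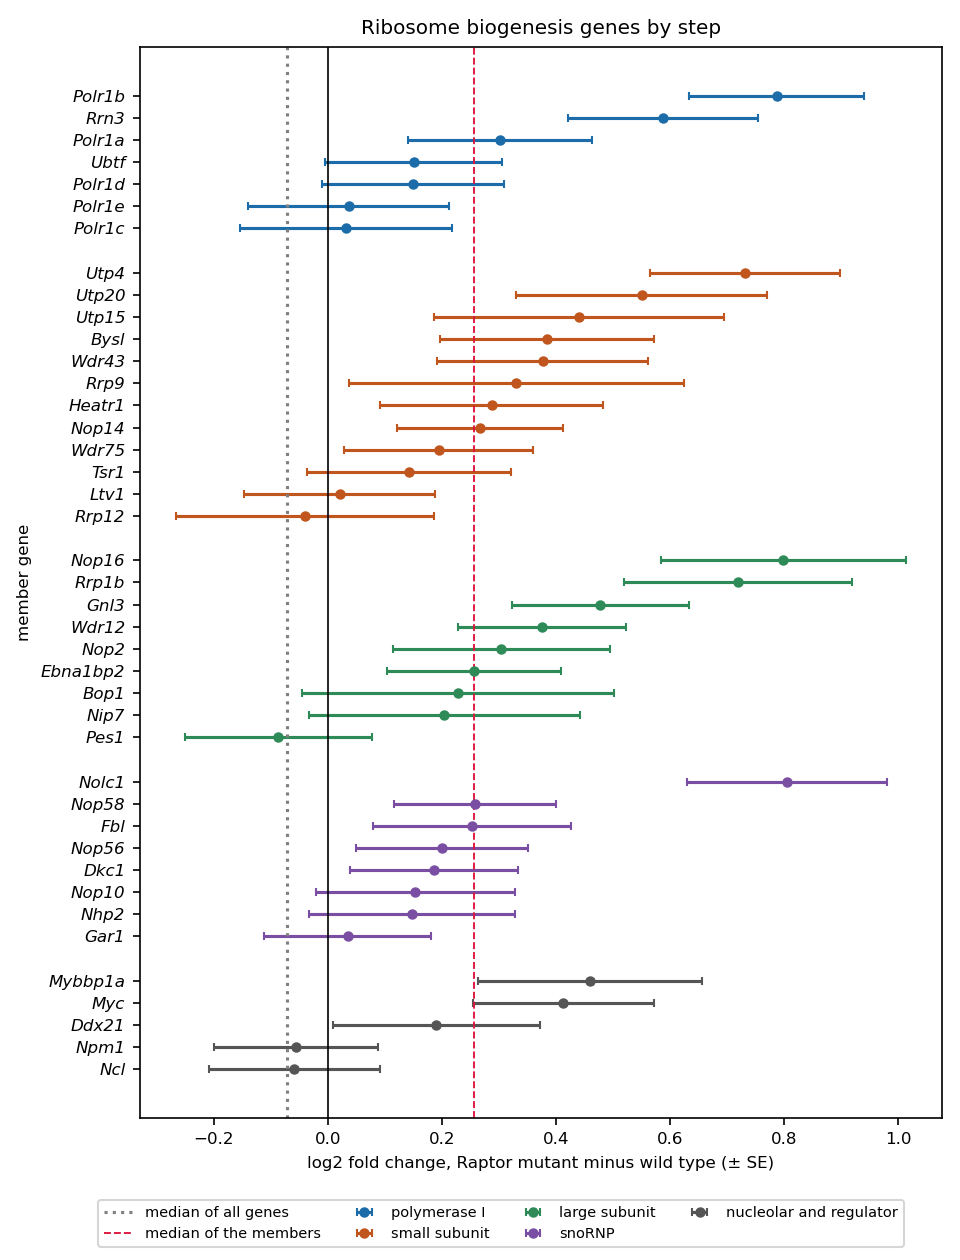
Log2 fold change of each of the 41 members, Raptor mutant minus wild type, with its standard error from limma as a bar, grouped by step and ordered within a step. Most points lie between 0 and 0.8, to the right of the dotted line at the median of all genes (-0.07), and the dashed line marks the median of the members (0.26).

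The bases before the start site are given for 5 members, chosen after their values and motifs were seen. Polr1b, Utp4, Nop16 and Nolc1 had the smallest p of the polymerase I, small subunit, large subunit and snoRNP genes, and Rrn3 is shown for its E-boxes. Each run is the 250 bases before a RefSeq start on build GRCm38.p6, 5′ to 3′ on the gene's strand: chr2:129100746-129100995 for Polr1b, chr16:13780449-13780698 for Rrn3, chr8:106893390-106893639 for Utp4 and chr19:46075597-46075846 for Nolc1 on the plus strand, and chr13:54590075-54590324 for Nop16 on the minus strand. Capitals mark the E-box CACGTG, which Myc and its relatives can bind, the ETS core CCGGAAG and the GC box GGGCGG, each on either strand.
Polr1b: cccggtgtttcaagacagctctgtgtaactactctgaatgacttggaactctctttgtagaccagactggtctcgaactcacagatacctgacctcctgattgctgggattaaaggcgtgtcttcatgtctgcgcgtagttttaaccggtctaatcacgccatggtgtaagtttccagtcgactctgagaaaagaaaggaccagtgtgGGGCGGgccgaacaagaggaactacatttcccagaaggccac
Rrn3: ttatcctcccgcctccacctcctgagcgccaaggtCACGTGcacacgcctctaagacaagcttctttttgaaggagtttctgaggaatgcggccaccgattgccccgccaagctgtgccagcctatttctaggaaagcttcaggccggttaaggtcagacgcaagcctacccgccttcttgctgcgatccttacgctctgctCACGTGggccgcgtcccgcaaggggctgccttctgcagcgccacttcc
Utp4: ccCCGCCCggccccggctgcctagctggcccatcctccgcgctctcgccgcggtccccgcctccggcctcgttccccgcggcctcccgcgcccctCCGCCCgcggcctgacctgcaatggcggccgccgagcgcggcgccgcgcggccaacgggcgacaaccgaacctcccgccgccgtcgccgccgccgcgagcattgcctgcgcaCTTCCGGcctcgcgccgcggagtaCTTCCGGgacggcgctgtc
Nop16: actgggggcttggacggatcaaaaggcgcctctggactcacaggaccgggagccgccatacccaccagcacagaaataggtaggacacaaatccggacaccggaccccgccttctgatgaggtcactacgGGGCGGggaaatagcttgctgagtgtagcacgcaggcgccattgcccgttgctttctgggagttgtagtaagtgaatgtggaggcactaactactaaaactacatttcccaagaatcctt
Nolc1: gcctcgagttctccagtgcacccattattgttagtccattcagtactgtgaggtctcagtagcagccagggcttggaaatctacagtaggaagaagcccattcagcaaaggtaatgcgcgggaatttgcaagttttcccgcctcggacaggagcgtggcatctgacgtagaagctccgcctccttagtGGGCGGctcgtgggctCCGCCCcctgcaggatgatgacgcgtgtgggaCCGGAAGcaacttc

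Of the 5, Rrn3 alone has the E-box before its start, in 2 copies whose first bases lie 215 and 48 bases upstream, and Utp4 has one beginning 15 bases after it. Promoter windows that also hold 50 bases after the start were found for 36 of the 41 members. An E-box lay in the windows of 9 of these 36 genes, on either strand, against 8.9% of protein-coding genes and 8.1% of all genes in the same table. The ETS core lay in 13 (36.1%, against 12.9% of protein-coding genes), the GC box in 28 (77.8%, against 49.2%) and the TATA box TATAAA in 2 (5.6%, against 14.8%). The median log2 fold change was 0.38 over the 9 members with an E-box and 0.26 over the 27 without, with ranges of -0.09 to 0.73 and -0.06 to 0.81, so that the ranges overlap almost throughout. These are matches of letters and not measured binding.

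Among the polymerase I genes, the signal of Polr1b and of the initiation factor gene Rrn3 was higher in the mutant, while the subunits shared with polymerase III differed little. All 7 had a log2 fold change above 0 on their brightest probe set, with a median of 0.15. Polr1b encodes a core subunit that forms the active centre together with the largest subunit. Its log2 signal was 8.56, 8.64 and 8.61 on wild type arrays 1 to 3 and 9.22, 9.44 and 9.51 on mutant arrays 1 to 3. The groups do not overlap, and the wild type arrays lie within 0.1 of one another. The log2 fold change was 0.79 ± 0.15 (SE), or 1.73-fold, with a limma adjusted p of 0.155.

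Rrn3 bridges polymerase I and the factors bound at the ribosomal DNA promoter, and is known as a point at which growth signals act. It stood at 9.56, 9.23 and 9.29 on wild type and at 9.81, 10.06 and 9.96 on mutant arrays, again without overlap. Its log2 fold change was 0.59 ± 0.17 (SE; limma adjusted p = 0.294). Polr1a, the catalytic subunit, stood at 10.50, 10.62 and 10.71 on wild type and at 11.07, 10.94 and 10.74 on mutant arrays, so that mutant array 3 lay just above wild type array 3. Its log2 fold change was 0.30 ± 0.16 (SE; limma adjusted p = 0.572). Ubtf, the factor that keeps ribosomal DNA open and bends it at the promoter, had a log2 fold change of 0.15. The values were 0.15 for Polr1d and 0.03 for Polr1c, both shared with polymerase III, and 0.04 for Polr1e, an associated subunit, and their groups overlap.

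Among the 12 small subunit genes, Utp4 and Utp20 had the larger differences on the brightest probe sets. Of the 12, 11 were above 0, with a median of 0.31. Utp4 belongs to the subcomplex that binds the nascent precursor and is tied to its transcription. It stood at 9.88, 9.70 and 9.58 on wild type and at 10.37, 10.36 and 10.63 on mutant arrays. Every mutant array lay above every wild type array, by a log2 fold change of 0.73 ± 0.17 (SE), or 1.66-fold, with a limma adjusted p of 0.193. Utp20, a large scaffold protein of the small subunit processome, stood at 10.44, 9.77 and 9.76 on wild type and at 10.65, 10.57 and 10.40 on mutant arrays. Wild type array 1 lay among the mutant arrays here. The log2 fold change was 0.55 ± 0.22 (SE; limma adjusted p = 0.469), and it was 0.10 when the mutants were set against wild type array 1 alone.

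The remaining members of the Utp4 subcomplex were Utp15, Wdr43, Heatr1 and Wdr75, with log2 fold changes of 0.44, 0.38, 0.29 and 0.19. Of these, only Wdr43 had groups that do not overlap on the brightest probe set. Dimmer probe sets of Utp15 (1.32) and Heatr1 (0.76) also had no overlap. The dimmest of Heatr1 (1.203) and the dimmer ones of Wdr43 (0.54) and Wdr75 (1.006) did overlap. Nop14, an early processome factor, had a log2 fold change of 0.27 and no overlap. Rrp9, a protein of the U3 snoRNP that guides the early cuts, had one of 0.33, which rests on mutant array 3 at 9.52 against 8.53 and 8.52 on mutant arrays 1 and 2. The late factors stay on the precursor as it matures and leaves the nucleus. Their log2 fold changes were 0.38 for Bysl, 0.14 for Tsr1, 0.02 for Ltv1 and -0.04 for Rrp12. All had overlapping groups on the brightest probe set. The dimmer probe set of Bysl, at 0.48, had no overlap, and that of Tsr1, at 0.40, did overlap.

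Among the 9 large subunit genes, 4 were higher at an unadjusted limma p under 0.05. Over all genes 5.81% were higher at that p, and over the 4549 brightest 7.83%. Of the 9, 8 were above 0, against 40.4% of all genes and 60.8% of the brightest. Their median was 0.30 (0.50 without wild type arrays 2 and 3). Nop16, a nucleolar assembly factor, stood at 8.74, 9.38 and 9.01 on wild type and at 9.72, 9.70 and 10.10 on mutant arrays. The groups do not overlap, but wild type array 2 lay closer to the mutants than to wild type array 1. Its log2 fold change was 0.80 ± 0.21 (SE), or 1.74-fold, with a limma adjusted p of 0.268. Rrp1b, a nucleolar factor of precursor processing, stood at 11.04, 10.54 and 10.53 on wild type and at 11.27, 11.62 and 11.38 on mutant arrays. Wild type array 1 again lay nearest to the mutants, and the log2 fold change was 0.72 ± 0.20 (SE; limma adjusted p = 0.285).

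Gnl3 encodes nucleostemin, a nucleolar GTPase named for its abundance in stem cells. It stood at 11.35, 11.54 and 11.31 on wild type and at 11.77, 11.88 and 11.99 on mutant arrays, without overlap. Its log2 fold change was 0.48 ± 0.16 (SE; limma adjusted p = 0.378). The subunits of the PeBoW complex, which matures the large subunit RNA, had unlike values. Wdr12 stood at 11.34, 11.52 and 11.53 on wild type and at 11.85, 11.86 and 11.80 on mutant arrays, with a log2 fold change of 0.38 ± 0.15 (SE; limma adjusted p = 0.463). Its partners Bop1 and Pes1 had log2 fold changes of 0.23 ± 0.27 and -0.09 ± 0.16 (SE), and the difference among the 3 was not tested. Ebna1bp2 had a log2 fold change of 0.26 without overlap, and the RNA methyltransferase gene Nop2 and the assembly factor gene Nip7 had 0.30 and 0.20 with overlap.

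All 8 snoRNP genes were above 0, with a median of 0.19, and Nolc1 stood apart from the core proteins. Nolc1 is a phosphoprotein that chaperones snoRNPs between Cajal bodies and the nucleolus. It stood at 11.06, 10.62 and 10.80 on wild type and at 11.77, 11.57 and 11.55 on mutant arrays. The groups are separated by almost 0.5, and the log2 fold change was 0.81 ± 0.17 (SE), or 1.75-fold, with a limma adjusted p of 0.177. Of the box C/D core, Nop58 stood at 12.37, 12.33 and 12.39 on wild type and at 12.55, 12.66 and 12.66 on mutant arrays, with no overlap and a log2 fold change of 0.26 ± 0.14 (SE; limma adjusted p = 0.582).

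Fbl, the enzyme of box C/D particles that methylates ribose, stood at 12.15, 12.28 and 12.59 on wild type and at 12.54, 12.72 and 12.52 on mutant arrays. Wild type array 3 lay among the mutants, and the log2 fold change was 0.25 ± 0.17 (SE; limma adjusted p = 0.637), or 0.16 without wild type array 1. Nop56 had one of 0.20. Of the box H/ACA core, Dkc1, the pseudouridine synthase encoded on the X chromosome, stood at 12.05, 12.14 and 12.15 on wild type and at 12.33, 12.39 and 12.19 on mutant arrays, a log2 fold change of 0.19 ± 0.15 (SE). On this probe set, the wild type array without Y-linked signal was the lowest of the 6. The dimmer probe sets of Dkc1 had log2 fold changes of 0.35 and 0.55. On these, wild type array 3 was the lowest, at 11.18 and 9.648, and wild type array 1 stood at 11.53 and 10.43. Nop10, a small protein of the same core, stood at 12.70, 12.94 and 12.98 on wild type and at 12.80, 13.13 and 13.15 on mutant arrays, with array 1 the lowest in both groups and a log2 fold change of 0.15 ± 0.17 (SE), which was 0.07 without wild type array 1, 0.10 without mutant array 2 and 0.09 without mutant array 3. It was 0.27 without mutant array 1. Nhp2 and Gar1 had 0.15 and 0.03.

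Of the 5 nucleolar and regulator genes, Myc and Mybbp1a were higher at an unadjusted limma p under 0.05. At that p 5.81% of all genes and 7.83% of the 4549 brightest were higher. Ddx21 was above 0, and Ncl and Npm1 were just below it. Myc drives many ribosome biogenesis genes in growing cells. It stood at 12.58, 12.24 and 12.33 on wild type and at 12.78, 12.84 and 12.77 on mutant arrays, with a log2 fold change of 0.41 ± 0.16 (SE; limma adjusted p = 0.458). When the mutants were set against wild type array 1 alone this was 0.21. Mybbp1a, a nucleolar protein that binds Myb and takes part in ribosomal RNA synthesis, stood at 11.46, 11.37 and 11.93 on wild type and at 11.87, 12.11 and 12.15 on mutant arrays, and wild type array 3 overlaps the mutants. Its log2 fold change was 0.46 ± 0.20 (SE; limma adjusted p = 0.495).

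Ncl (nucleolin), which binds nascent ribosomal RNA, stood at 13.50, 13.68 and 13.43 on wild type and at 13.49, 13.43 and 13.52 on mutant arrays. Npm1 (nucleophosmin), a nucleolar chaperone, stood at 13.80, 13.92 and 13.77 on wild type and at 13.81, 13.76 and 13.75 on mutant arrays. Both groups overlap for both genes, and the log2 fold changes were -0.06 ± 0.15 and -0.06 ± 0.14 (SE). Ncl changes sign, to 0.13, with the mean of its probe sets and, to 0.01, without wild type array 2. Npm1 changes sign, to 0.01, with the mean of its probe sets, and to 0.08 with its dimmer one. The helicase gene Ddx21 had a log2 fold change of 0.19 ± 0.18 (SE).

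**Figure D2:**
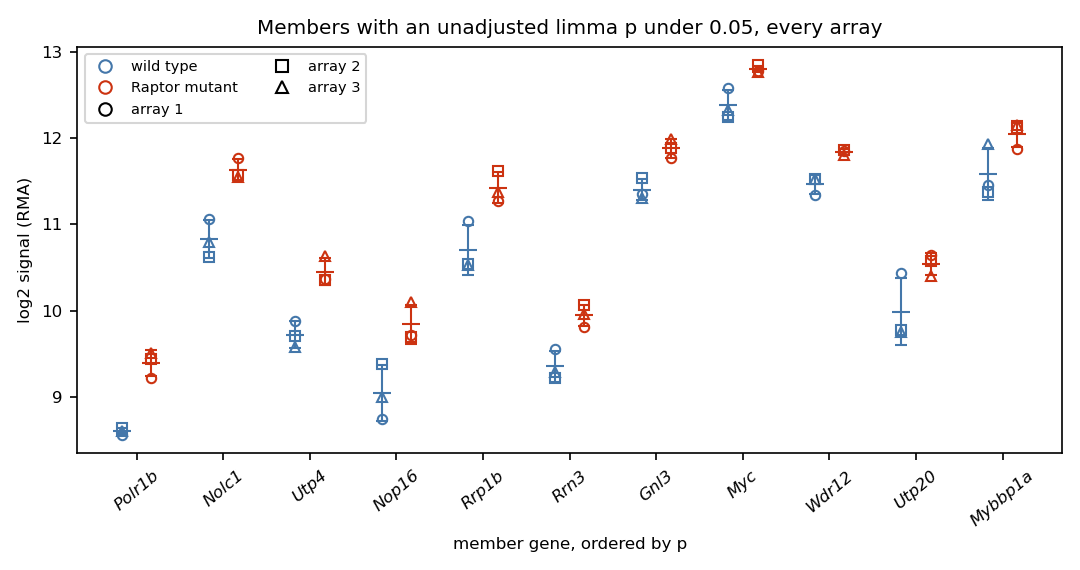
Log2 signal on every array for the 11 members with an unadjusted limma p under 0.05, ordered by p. Open symbols are single arrays (blue wild type, red Raptor mutant, with the shape giving the array number), and horizontal marks with bars are group means ± SD (n = 3). The groups are apart in all genes shown except Utp20, where wild type array 1 (10.44) lies above the lowest mutant array (10.40), and Mybbp1a.

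The median of the members was above 0 on each mutant array and below 0 on each wild type array. With every gene centred on its mean over the 6 arrays, the median over the 41 members was -0.14, -0.13 and -0.10 on wild type arrays 1 to 3 and 0.10, 0.19 and 0.15 on mutant arrays 1 to 3. Over all 18193 genes these medians were -0.08, 0.06 and 0.08 on wild type and -0.06, -0.01 and -0.03 on mutant arrays. They were not computed over the 4549 brightest genes, which hold 34 of the members. A wild type array was the lowest of the 6 in 36 members, split 15, 11 and 10 among wild type arrays 1 to 3. Mutant array 2 was the highest in 15 members. Of all 18193 genes, wild type arrays 1 to 3 were the lowest in 3938, 3002 and 3287, and mutant array 2 was the highest in 1776. The polymerase I, small subunit and snoRNP genes each had centred medians below 0 on all wild type arrays and above 0 on all mutant arrays. The large subunit genes did as well, from -0.29 on wild type array 1 to 0.24 on mutant array 3. The 5 nucleolar and regulator genes did not, with 0.10 on wild type array 2. The SD of a member had a median of 0.177 over wild type arrays and of 0.126 over mutant arrays, against 0.286 and 0.158 for all genes.

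**Figure D3:**
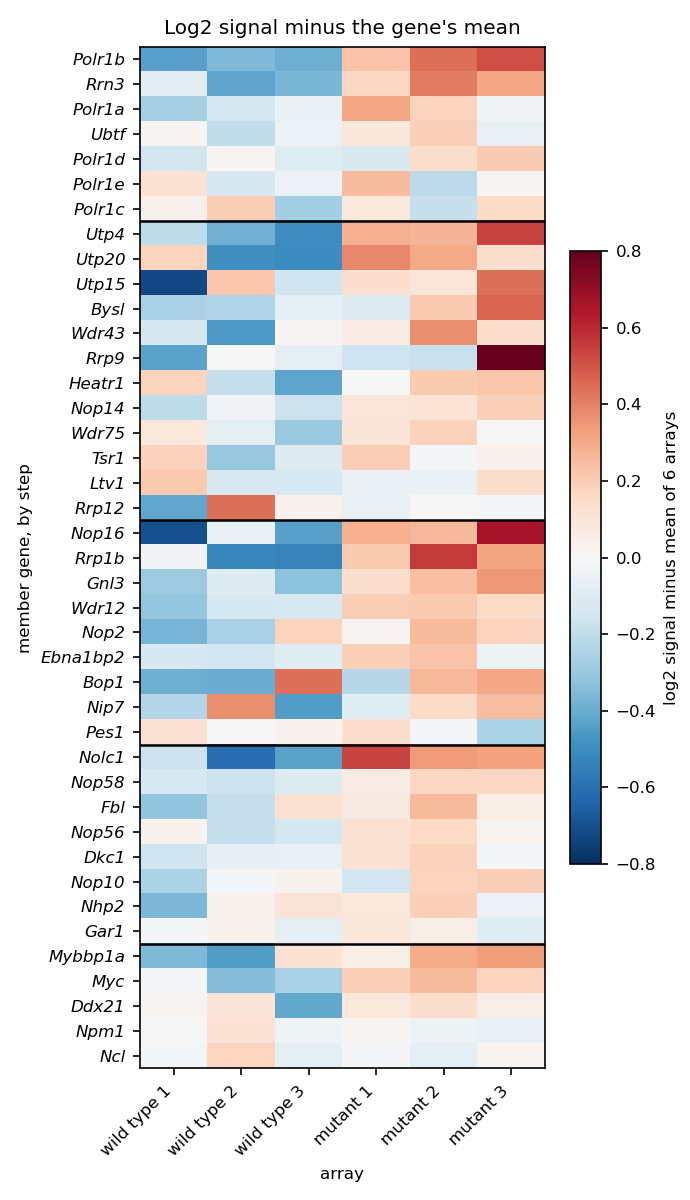
Log2 signal of each member on each array after subtracting the gene's mean over the 6 arrays, with members in rows by step (from the top: polymerase I, small subunit, large subunit, snoRNP, nucleolar and regulator genes) and arrays in columns. Red is above and blue below the gene's mean. The 3 mutant columns are mostly red and the 3 wild type columns mostly blue, with exceptions such as Utp20 on wild type array 1 and Ncl and Npm1 throughout.

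The members lay mostly above 0 against each control array taken alone. With the mean of the 3 mutant arrays set against wild type array 1 alone, 33 of 41 members were above 0 and the median was 0.33, while 58.1% of all genes were above 0 with a median of 0.04. Against wild type array 2 it was 32 members and a median of 0.29, and against wild type array 3 it was 36 members and a median of 0.23, where 40.2% and 40.01% of all genes were above 0, with medians of -0.10 and -0.11. All 3 mutant arrays exceeded wild type array 1 in 28 members, wild type array 2 in 27 and wild type array 3 in 25, against 33.3%, 26.7% and 27.5% of all genes. With 1 control array there is no spread between controls, so these are values without a test.

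Other probe sets of the same genes mostly gave the same sign, and often a larger difference. The arrays hold 83 probe sets that name one of the members alone, of which 75 have a mean log2 signal above 7.29, the median of all probe sets that name 1 gene. Of these 75, 66 had a log2 fold change above 0, against 59.1% of all probe sets above that level, and limma called 0 at an adjusted p under 0.05. In 20 of the 24 members with more than 1 such probe set all were above 0. The 4 with mixed signs were Ncl, Npm1, Polr1d and Polr1e, where the values lay between -0.12 and 0.39.

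The next count was made for the members only, so whether other genes do the same was not examined. In 18 of these 24 members the dimmest such probe set had a larger log2 fold change than the brightest. For Utp15 it was 1.32 ± 0.23 (SE) against 0.44 ± 0.26, for Heatr1 1.203 ± 0.37 against 0.29 ± 0.20, for Wdr12 0.86 ± 0.32 against 0.38 ± 0.15 and for Ubtf 0.60 ± 0.24 against 0.15 ± 0.16. For Polr1a the 3 probe sets had 0.30, 0.54 and 0.68. The 3 probe sets of Rrp1b, at 0.72, 0.74 and 0.67, and of Nolc1, at 0.81, 0.55 and 0.88, gave closer values, with mutant arrays above all wild type arrays in each. With the dimmest such probe set in place of the brightest for every gene, the polymerase I median was 0.59 and the median of the members 0.35. That polymerase I median is the value of Rrn3, which is the same under either choice. Polr1d and Polr1e then stood below 0, at -0.04 and -0.12.

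**Figure D4:**
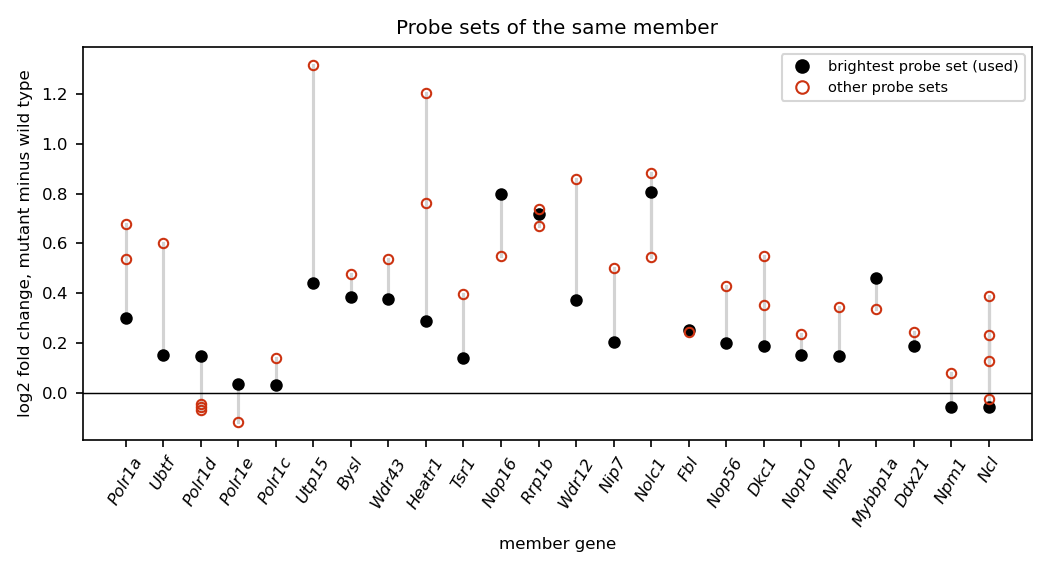
Log2 fold change, mutant minus wild type, of each probe set of the 24 members that have more than 1 probe set with a mean above the median of all probe sets, with genes ordered by step. Filled points are the brightest probe set, used elsewhere, and open points are the others. Most open points lie above the filled one, up to 1.32 for Utp15, and 4 genes have points on both sides of 0.

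A separate list of 104 further genes of the pathway, none of them a member, also lay mostly above 0. It too was chosen with earlier results of these data known. Of the 100 measured, 86 had a log2 fold change above 0, against 40.4% of all genes and 60.8% of the 4549 brightest, with a median of 0.21. At an unadjusted limma p under 0.05, 15 were higher, against 5.81% of all genes and 7.83% of the brightest, and 0 lower, and limma called 0 at an adjusted p under 0.05. The medians were 0.17 over 11 polymerase I genes, 0.21 over 38 small subunit genes, 0.28 over 42 large subunit genes and 0.20 over 9 snoRNP genes. Large subunit genes made up 11 of the 15, with 3 from the small subunit, 1 from the snoRNPs and 0 from polymerase I. All mutant arrays lay above all wild type arrays in 29 genes and below them in 2, Ddx51 and Gnl2. These shares were 8.08% and 7.98% over all genes, and 15.0% and 7.10% over the 4549 brightest.

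The smallest p-values among them belonged to Pwp2, Ddx56, Ddx27 and Mdn1. Pwp2, a scaffold protein of the small subunit processome, stood at 9.81, 9.72 and 9.86 on wild type and at 10.58, 10.43 and 10.48 on mutant arrays, a log2 fold change of 0.70 ± 0.15 (SE; limma adjusted p = 0.165). The groups are separated by more than their own spread. The helicase genes Ddx56 and Ddx27 had log2 fold changes of 0.84 ± 0.18 and 0.60 ± 0.15 (SE), and Mdn1, a large ATPase that strips factors from the large subunit, had group means of 8.31 and 9.31 on wild type and mutant arrays, where wild type array 3 was low at 7.68. In the other direction the smallest p-values were those of Ddx51, Gnl2, Efl1 and Znrd1, at -0.29, -0.23, -0.31 and -0.12, with limma adjusted p between 0.611 and 0.831.

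**Figure D5:**
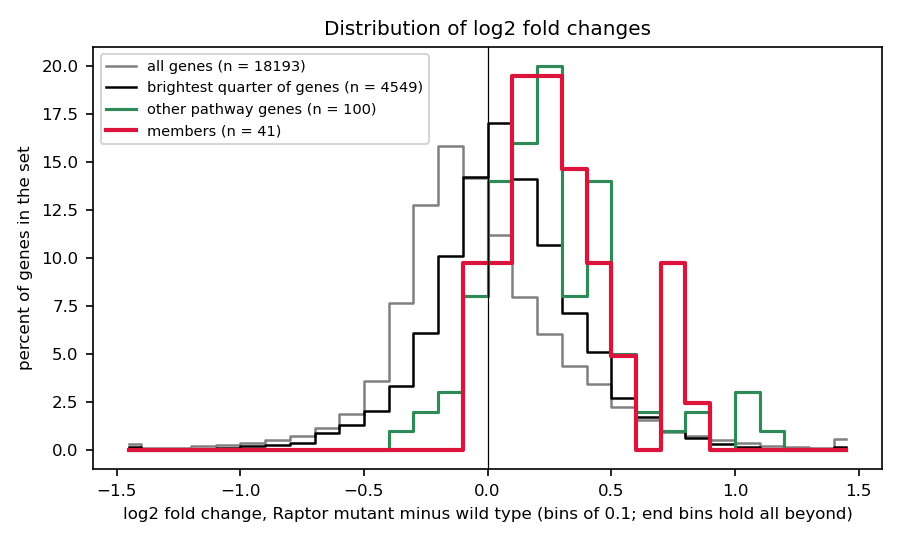
Share of genes, in percent, by log2 fold change (mutant minus wild type, bins of 0.1) for all 18193 genes, the 4549 brightest genes, the 100 other pathway genes and the 41 members. The lines of the members and of the other pathway genes are shifted to the right of both backgrounds (medians 0.26 and 0.21 against -0.07 and 0.06).

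The ribosomal proteins themselves, which are assembled by this machinery, stood closer to 0. Of 49 listed, 32 were measured through a probe set naming 1 gene, and 30 of these were among the 4549 brightest genes. Rps16 and Rpl37, at most at 5.465 and 5.281, stood below the median signal of every array. The highest mean log2 signal was 14.49 among the ribosomal proteins, 13.8 among the members and 14.67 over all genes. Whether signals so near the top of the range show differences as fully as lower ones was not tested. Of the 32, 22 (68.75%) were above 0, against 40.4% of all genes and 60.8% of the 4549 brightest. The median was 0.04, against -0.07 and 0.06, and 0 had an unadjusted limma p under 0.05. Genes of the cell cycle, which often move with ribosome production, had medians of 0.08 over 20 G1/S genes and 0.19 over 19 G2/M genes. Of these, 15 (75%) and 13 (68.4%) were above 0, and 0 and 1 were higher at an unadjusted limma p under 0.05. At that p 5.81% of all genes and 7.83% of the brightest were higher.

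Markers of cell state and of other cells differed between the groups as well. In bulk RNA, fewer cells of a type and less RNA per cell cannot be told apart. Among 10 measured genes of the sort gate and of stem cells 8 were below 0 and 2 above. The stem cell genes Mecom, Hlf and Procr had log2 fold changes of -0.996, -0.81 and -0.86. Cd48, a surface protein of more advanced progenitors, had 0.68. Each of these was without overlap, where 7.98% of all genes were lower and 8.08% higher without overlap. Slamf1, also of this list, was the other gene above 0, at 0.25. Meis1 had -0.59, and Flt3, Cd34, Kit and Ptprc lay between -0.19 and -0.09. The summed signal of the 10 genes ran from 19580 to 24150 intensity units on wild type and from 17380 to 19280 on mutant arrays. Of 9 mast cell and basophil genes 8 were above 0, and their sum was 2273 to 2891 on wild type and 5863 to 9045 on mutant arrays. Gzmb, a granule protease gene of that list, rose by 4.21 (log2; limma adjusted p = 0.0134). Of 12 macrophage and dendritic cell genes 9 were above 0 (2682 to 3784, against 5760 to 12300). Of 10 granulocyte and monocyte genes 8 were below 0 (26630 to 34700, against 11330 to 14860), and Camp, a neutrophil granule gene, fell by 3.81 (log2; limma adjusted p = 0.0299). Of 7 megakaryocyte genes 6 were below 0 (4590 to 7823, against 2104 to 3060).

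The T and NK cell list (3 of 7 above 0), the B cell list (1 of 7) and the erythroid list (4 of 7) had sums of 2957 to 3248, 752 to 1033 and 3330 to 6490 on wild type arrays. On mutant arrays these were 3352 to 3538, 552 to 1002 and 4685 to 8486. The summed signal of the 41 members ran from 125200 to 128600 on wild type and from 142400 to 148200 on mutant arrays. The part of these cell types in the higher signal of the ribosome biogenesis genes was not tested.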

How the data were processed

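RNA of 6 samples (3 wild type, 3 Raptor mutant) was measured on 1-colour expression arrays after amplification, per the labels' protocols. Per the submitters' processing notes the authors used RMA, whose version and settings are not stated there, and the deposited file holds its output as linear intensity, so log2 was taken. Of 45101 probe sets, 34945 name a single gene in the platform annotation, and the brightest per gene gave 18193 genes. Names came from Entrez identifiers matched to the GRCm38.p6 table (34741 matched), and 3 pathway genes were matched under older names (Twistnb, Cd3eap, Znrd1). The test was that of limma 3.58.1 (R 4.3.3; lmFit, eBayes, no covariate, two-sided), adjusted by Benjamini-Hochberg over all genes. Dim genes were kept. Precision is limited by the number of arrays. At most 99 probe sets had equal values in any pair of arrays.

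The members and the other gene lists were chosen with earlier results of these data known. All 41 members are accounted for, and values on every array are given for those with an unadjusted p under 0.05, the 2 of smallest p in each step, and Myc, Ncl, Npm1, Fbl, Polr1a and Nop10 (Dkc1 was added after its values were seen). Of the pathway list, the 4 genes of smallest p in each direction are named. The fit was tested on simulated data with known changes. The alternatives (replicate block, centring, normalization, choice of probe set, filters on dim genes, fitting options, Y-linked signal, arrays left out) are given in the closing section.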

Additional observations from a re-analysis of the deposited data

How the results depend on the processing

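The count of genes called by limma over the whole table was 20. It was 10 with the replicate number as a block, 6 without the lower 75% of genes by mean, 7 with the dimmest probe set above the median, 8 with array weights, 40 with trend and robust fitting and 49 at an adjusted p under 0.10. It was 0 with a covariate for Y-linked signal (1149 genes at an unadjusted p under 0.05) and 0 without wild type arrays 2 and 3 (1729), a fit that assumes the lone control to vary like the mutants. Leaving out 1 array gave 5 to 31, with 31 without wild type array 1, 5 without wild type array 3, 10 without mutant array 1 and 9 without mutant array 3. The count of members called was 0 in each of the 19 alternatives.

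Members above 0 numbered between 31 (of the 34 left without the lower 75% of genes) and 37 in each alternative. Their median was 0.33 when probe sets of a gene were averaged, 0.33 with a Y-linked covariate, 0.33 without wild type arrays 2 and 3 and 0.35 with the dimmest probe set, and 0.20 to 0.28 on leaving out 1 array. Members higher at an unadjusted limma p under 0.05 numbered 18 with the mean of probe sets, 7 with the Y-linked covariate and 9 with the replicate block. On leaving out 1 array they numbered 6 to 12. Over all genes, 1828 had such a p in either direction in the main fit. That count was 1950, 1149 and 1994 in these 3 settings, and 1066 to 3938 on leaving out 1 array. Members without overlap numbered 28 without wild type arrays 2 and 3, where only 1 control array has to be exceeded. All 3 mutant arrays exceeded that array in 33.3% of all genes. The median of the large subunit genes was 0.46 with the Y-linked covariate and 0.50 without wild type arrays 2 and 3, that of the polymerase I genes 0.23 and 0.22, that of the snoRNP genes 0.29 and 0.29, and that of the nucleolar and regulator genes 0.11 and 0.07. With the dimmest probe set the polymerase I, large subunit and snoRNP medians were 0.59, 0.48 and 0.30, and with the mean of probe sets the polymerase I median was 0.29. Leaving out wild type array 3 gave 0.03 for the nucleolar and regulator genes, and leaving out wild type array 2 gave 0.29. Of the named members Ncl turned sign with the mean of its probe sets (0.133) and without wild type array 2 (-0.111 to 0.0112 on leaving out 1 array), and Npm1 with the mean (0.0123) and with its dimmer probe set (0.0798). No other named member turned sign. Polr1d and Polr1e, not among those followed by name, were below 0 with the dimmest probe set. The alternatives with the lower 75% of genes left out and with the dimmest probe set were chosen after the data were examined.

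The deviations of same-numbered arrays from their group means correlated across genes at 0.184, -0.026 and 0.063 for arrays 1 to 3. Differently numbered arrays of the groups had correlations of -0.156 to 0.0941, so that the value for arrays 1 was the highest. As all these values were low, the numbers were not taken to pair the arrays, and the replicate block is given as an alternative.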
